A study of Homo sapiens with 8 samples.

Results

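The libraries described here are the 4 labelled DU145, a line grown from a brain metastasis of prostate cancer: 2 that received a plasmid expressing EphA2 (DU145 EphA2 OE) and 2 that received a control plasmid (DU145 control), each lysed 48 h after lipid transfection. Of 33221 genes in the series' table, 22727 passed a filter on low counts and are the members compared; 4 of the 8 libraries of the series enter the contrast. The label gives both DU145 groups a wild-type genotype, so the plasmid adds EphA2 to cells that already make it. The transfection is transient, neither the plasmid's promoter nor the share of cells transfected is stated, and nothing in the labels says that replicates came from separate cultures; p-values rest on library-to-library spread, which may be technical. The other 4 libraries, labelled PC3 and carrying either a CRISPR/Cas9 lentivirus to EphA2 (PC3 EphA2 KO) or its non-targeting form (PC3 control), entered the fit as 2 further groups that share the estimate of the spread. Values are given as FPKM (fragments scaled to transcript length and depth) for levels and as log2 differences of CPM (counts scaled to library size) for changes.

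EphA2 is a receptor tyrosine kinase of the Eph family. Bound by ephrin-A ligands on a neighbouring cell it clusters, signals through its kinase and adaptor proteins, restrains ERK and is taken into the cell; without ligand it can instead be phosphorylated by AKT or RSK and favour migration. It is abundant in many carcinomas, prostate cancer among them. E-cadherin, encoded by CDH1, holds epithelial cells together, and the series was designed around EphA2 in prostate cancer lines with the receptor removed or added.

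Total counts ran from 57571919 to 60951530 over the 8 libraries, TMM factors from 0.973 to 1.03, and mitochondrial genes took 7.80% to 8.51% of counts. Epithelial markers were abundant in the DU145-labelled libraries, with the keratin KRT18 at 103 to 139 FPKM and the adhesion molecule EPCAM at 24.9 to 38.4 FPKM. The leukocyte marker PTPRC and the fibroblast marker PDGFRA did not exceed 0.0203 FPKM in these 4, and the prostate lineage genes HOXB13 and TMPRSS2 were listed at 0. Not every such marker was near 0. The 13 fibroblast, endothelial and immune markers in the table summed to 24.3 to 28.9 FPKM in the DU145-labelled libraries. CD68, an immune marker among them, was at 13.8 to 20.8 FPKM in the libraries labelled PC3. CTNNA1, which PC3 is known to have lost, was at 38.0 to 45.6 FPKM in the DU145-labelled libraries, but also at 36.5 to 45.8 FPKM in the libraries labelled PC3, so those go against their label. STK11, in which DU145 is known to carry an inactivating mutation, was at 2.66 to 4.43 FPKM in the DU145-labelled libraries and at 2.91 to 3.88 FPKM in those labelled PC3. The levels overlap, so this gene does not set the lines apart, and a transcript level does not show such a mutation. The table names the control columns in words that the labels do not repeat, and assigning them to the 2 lines follows the usual meaning of those words. One list bears on that reading without testing it: of 33 keratin and cornified envelope genes, 13 had no more than 3 counts in any PC3-labelled library, and 12 of these had between 6 and 270 counts in every DU145-labelled library, both controls included. KRT5, a basal keratin, was at 0.838 and 0.899 FPKM in the overexpression libraries, 0.625 and 0.805 FPKM in the controls and 0 in the other 4. On exchange of the 2 pairs of controls this keratin list moved most of all lists, its median from 0.08 to 5.16. Of its 31 tested members 16 lay higher before the exchange and 28 after. Exchanged values also stand beside the called genes and many of the other lists. The closing section gives them for other named genes that changed sign, among those checked.

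EPHA2, on the minus strand of chromosome 1 at 16124337 to 16156069 (GRCh38; ENSG00000142627), was at 69.3 and 81.0 FPKM in the overexpression libraries and at 58.8 and 58.9 FPKM in the controls. Both overexpression libraries lay above both controls, replicate 1 at 118% and replicate 2 at 138% of the control mean. Counts of EPHA2 were 19568 and 22926 against 16854 and 17232. The log2 fold change was 0.31 (SE 0.09; adjusted p = 0.458 in edgeR's quasi-likelihood test, Benjamini-Hochberg over all genes), so EPHA2 did not pass the threshold of 0.05; nor did it with replicate 2 alone against both controls (log2 fold change 0.39, adjusted p = 0.0966). Reads from the plasmid and from the cells' own gene cannot be told apart in a count per gene. In bulk RNA a change in the share of cells and a change per cell cannot be told apart either.

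Of the other Eph receptors 8 were measured and none passed in edgeR or DESeq2; over all 9 receptors 2 lay higher and 2 lower at an unadjusted p under 0.05. EPHB4, the next most abundant per length, was at 12.3 and 13.1 FPKM against 13.4 and 12.03 FPKM, with overlapping groups. EPHB2, at 0.472 and 0.675 against 0.981 and 0.949 FPKM, and EPHB3, at 0.293 and 0.269 against 0.785 and 0.572 FPKM, lay lower in both overexpression libraries at low levels. Among the ephrin ligands 4 of 8 lay higher. EFNA1, the ephrin-A1 ligand of EphA2, was at 6.25 and 10.9 FPKM against 5.61 and 6.25 FPKM, so that replicate 1 stood level with a control and replicate 2 above both. Of 23 adaptors and effectors of EphA2, 12 lay higher with a median log2 fold change of 0.00. GRB7, an SH2 adaptor, was at 3.30 and 5.33 FPKM against 2.11 and 2.29 FPKM, and SHC1, which links receptors to RAS, was at 93.3 and 115 against 132 and 129 FPKM.

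CDH1 was at 15.3 and 14.3 FPKM in the overexpression libraries and at 19.9 and 18.7 FPKM in the controls, below both in each (log2 fold change -0.43, SE 0.09, edgeR adjusted p = 0.368).

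Across all genes 9 passed the threshold, or 0.0396% of those tested: 5 higher (0.022%) and 4 lower (0.0176%). The 3 with the smallest p, UHMK1, EPDR1 and LASP1, were of moderate to high abundance and differed by more than 3-fold between the groups, with replicates close to each other. UHMK1 (chromosome 1, 162497251 to 162529629, plus strand), a kinase that phosphorylates the cell cycle inhibitor p27, fell to 7.83 and 8.48 FPKM from 32.7 and 33.0 FPKM in the controls (log2 fold change -2.06, SE 0.08, edgeR adjusted p = 0.000312). EPDR1 (chromosome 7, 37683843 to 37951936, plus strand), a lysosomal glycoprotein, fell to 9.73 and 9.86 from 32.2 and 33.8 FPKM (log2 fold change -1.80, SE 0.09, edgeR adjusted p = 0.00112). In both genes the PC3-labelled libraries lay with the DU145 controls, at 28.7 to 35.2 FPKM for UHMK1 and 29.3 to 32.8 FPKM for EPDR1, so the 2 overexpression libraries were the low ones of the 8.

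LASP1 (chromosome 17, 38869859 to 38921769, plus strand), which binds actin at focal adhesions, rose to 66.1 and 60.5 FPKM from 17.8 and 15.7 FPKM (log2 fold change 1.88, SE 0.10, edgeR adjusted p = 0.00128). Here the controls stood apart instead: the 4 PC3-labelled libraries were at 58.9 to 65.3 FPKM, and with the controls exchanged the log2 fold change was 0.07. HSD17B12, an enzyme of fatty acid elongation, rose to 7.94 and 8.12 from 3.79 and 3.61 FPKM, with 6.65 to 7.31 FPKM in the PC3-labelled libraries and a log2 fold change of 0.15 on exchange. DNAL1, an axonemal dynein light chain, rose to 1.42 and 1.78 from 0.276 and 0.365 FPKM. It took both levels in the PC3-labelled libraries, 0.305 and 0.274 FPKM in the knockout and 1.96 and 1.79 FPKM in the control.

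The cytokine receptor IL1RL1, which binds interleukin 33, rose to 3.45 and 4.32 FPKM from 1.22 and 1.05 FPKM, beyond the 1.62 to 2.61 FPKM of the PC3-labelled libraries. TNFAIP3 (chromosome 6, 137867214 to 137883312, plus strand), the A20 ubiquitin-editing inhibitor of NF-kB, rose to 20.6 and 22.7 from 11.8 and 10.96 FPKM, with 13.1 to 15.7 FPKM in the PC3-labelled libraries (log2 fold change 0.88, SE 0.09, edgeR adjusted p = 0.0449). GPD1L, a relative of glycerol-3-phosphate dehydrogenase, fell to 1.41 and 1.08 from 4.99 and 4.96 FPKM, and F13A1, the A chain of coagulation factor XIII, to 42.9 and 52.1 from 89.6 and 87.4 FPKM. Knockout libraries labelled PC3 were at 1.45 and 1.42 FPKM for GPD1L, as low as the overexpression, and at 66.5 and 67.0 FPKM for F13A1. The PC3 control libraries were at 4.53 and 5.75 FPKM for GPD1L, near the DU145 controls. For F13A1 they were at 49.1 and 45.5 FPKM, near the overexpression libraries, so the DU145 controls were the high ones of the 8. UHMK1, DNAL1 and GPD1L overlap no other gene in the table, the other 6 called genes overlap 1 to 5, and reads can be split between overlapping genes in counting. With the 4 DU145-labelled libraries fitted alone edgeR called no gene (1237 had an unadjusted p under 0.05), while DESeq2 on all 8 libraries called 302, or 1.4%, the 9 among them (200 higher, 0.925%; 102 lower, 0.472%). Of the 9, 3 passed with the controls exchanged, DNAL1 turned to -0.22 and F13A1 to 0.01. Under that exchange IL1RL1 was at 0.68 and TNFAIP3 at 0.48, neither past the threshold in edgeR, while the 3 that passed, UHMK1, EPDR1 and GPD1L, were at -2.09, -1.59 and -2.03.

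The next genes by p did not pass in edgeR, while DESeq2 called each of those given here. RAB31, a small GTPase of trans-Golgi transport, was at 24.8 and 36.9 FPKM against 8.02 and 4.76 FPKM (adjusted p = 0.0786 in edgeR), with 9.19 to 10.2 FPKM in the PC3-labelled libraries. HLA-B, which presents peptides on MHC class I, was at 77.4 and 91.0 FPKM against 43.6 and 47.5 FPKM, and IFI6, an interferon-induced protein of mitochondria, at 34.4 and 73.5 against 7.09 and 9.32 FPKM. Both overexpression libraries were above all 6 others in these 3 genes. PPARGC1B, a coactivator of mitochondrial genes, was at 0.350 and 0.204 FPKM against 1.20 and 1.07 FPKM, and ICMT, which methylates prenylated proteins such as RAS, at 24.0 and 17.3 against 44.3 and 46.3 FPKM; the PC3-labelled libraries were at 1.15 to 1.31 and 37.9 to 43.6 FPKM, with the controls. For TENT4B, a poly(A) polymerase, and IL17RA, a receptor of interleukin 17, the PC3-labelled libraries lay instead with the overexpression libraries.

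**Figure D1:**
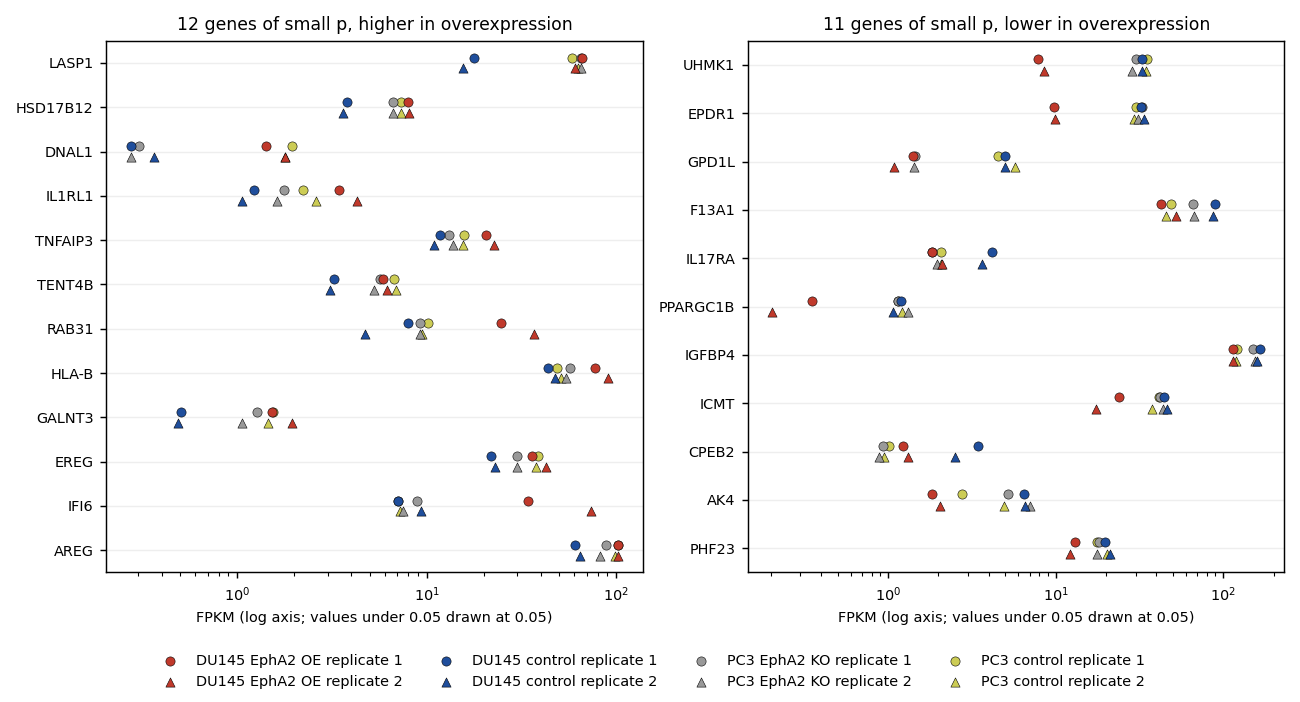
FPKM on a log axis of 12 genes of small p that lay higher (left) and 11 that lay lower (right) with EphA2 overexpression, one point per library for all 8 libraries. The overexpression libraries stand alone at the low end for UHMK1 (7.83 and 8.48 FPKM) and EPDR1, while the DU145 controls stand alone at the low end for LASP1 (17.8 and 15.7 FPKM).

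The 2 overexpression libraries differed in how far they stood from the controls. In 8258 genes whose mean CPM exceeded 20, replicates differed by a median absolute log2 of 0.190 in the overexpression, 0.118 in the DU145 control, and 0.0885 and 0.0967 in the PC3-labelled groups. The median absolute distance from the mean of both controls was 0.126 for replicate 1 and 0.198 for replicate 2. More than 1 log2 unit from that mean lay 118 genes in replicate 1 (49 higher, 69 lower) and 214 in replicate 2 (122 higher, 92 lower). Set alone against both controls, with the single library assumed to vary like the other groups, replicate 1 had 40 genes past the threshold (12 higher, 0.0486%, and 28 lower, 0.113%; together 0.162% of 24693 tested) and replicate 2 had 376 (209 higher, 167 lower; 1.52% of 24795). With the controls exchanged these counts were 25 and 102. The fits share both control libraries, and each p speaks for 1 library against 2, not for the condition.

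**Figure D2:**
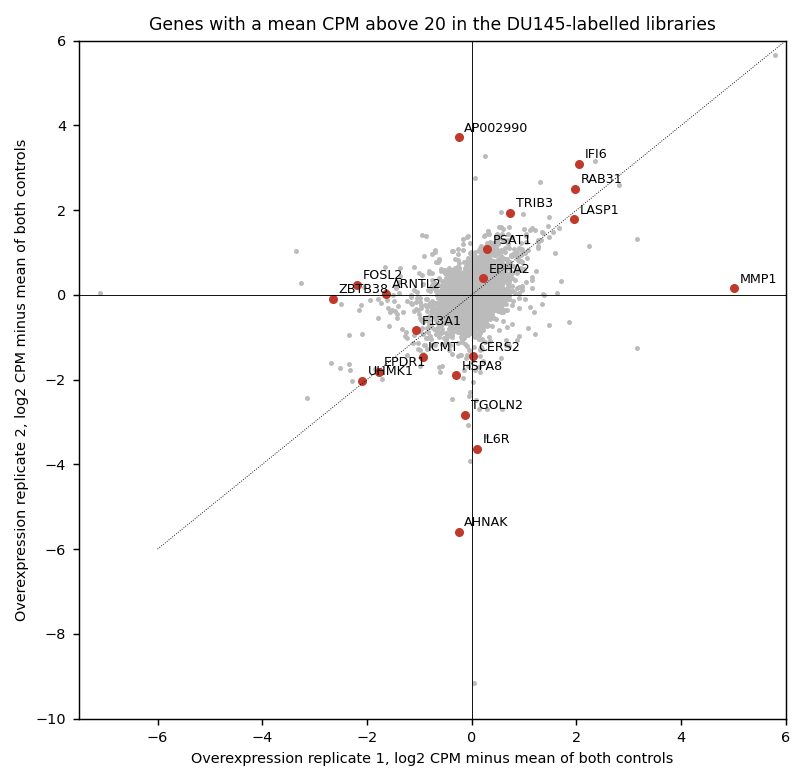
Each point is 1 of the genes with a mean CPM above 20, placed by its log2 CPM minus the mean of both controls in overexpression replicate 1 (horizontal) and replicate 2 (vertical). The axes share the control libraries, which alone draws points toward the diagonal (dotted); LASP1, UHMK1 and EPDR1 lie near it, MMP1 lies out along the axis of replicate 1 alone, and AHNAK and TGOLN2 along that of replicate 2.

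Among genes named for replicate 2, replicate 1 lay on the same side of both controls in some and not in others. Of the 7 higher genes named here for replicate 2, replicate 1 also lay above both controls in each, by less. Over all genes tested it did so in 7875 of 22727. The 7 were picked by small p for replicate 2 against the same control libraries. That choice favours both features, so the count does not show a shared response. TRIB3, a pseudokinase induced by ATF4, was at 33.4 and 80.0 FPKM against 20.6 and 19.0 FPKM (edgeR adjusted p = 0.00165 for replicate 2, 0.0910 for replicate 1). PSAT1, of serine synthesis, was at 246 and 437 FPKM against 194 and 200 FPKM, and STC2, a secreted glycoprotein, at 25.1 and 49.0 against 18.4 and 17.4 FPKM. SIK1, a kinase induced by cAMP, was at 5.03 and 13.6 against 2.18 and 1.86 FPKM, and DHRS3, a retinaldehyde reductase, at 0.965 and 3.43 against 0.228 and 0.247 FPKM. DDIT4, an inhibitor of mTORC1, was at 57.5 and 130 against 43.3 and 47.1 FPKM, and ICAM1, an adhesion molecule for leukocytes, at 117 and 232 against 108 and 111 FPKM. For DDIT4 the PC3 control libraries, at 115 and 120 FPKM, came near replicate 2, and with the controls exchanged the log2 fold change turned to -0.33.

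Of the 8 lower genes named for replicate 2, AHNAK, TGOLN2 and MIR1244-1 were low in that library by more than 2 log2 units, with replicate 1 near the controls. AHNAK, a very large scaffold protein, was at 81.3 FPKM in replicate 1 and 2.07 FPKM in replicate 2, against 104 and 87.3 FPKM in the controls and 60.4 to 84.9 FPKM in the PC3-labelled libraries. TGOLN2, a marker of the trans-Golgi network, was at 30.8 and 4.88 FPKM against 32.7 and 33.4 FPKM. The ceramide synthase CERS2 was at 94.9 and 35.7 against 91.8 and 93.0 FPKM, and SCARB2, a lysosomal membrane protein, at 6.76 and 2.71 against 7.34 and 7.06 FPKM. TUBB, a beta-tubulin, was at 718 and 428 FPKM against 746 and 751 FPKM. The chaperones HSP90AA1, at 503 and 335 against 580 and 587 FPKM, and HSPA8, at 281 and 95.9 against 372 and 313 FPKM, complete the named set with MIR1244-1, which was listed at 0.127 FPKM in replicate 2 and also at 0.122 and 0.126 FPKM in the PC3 control libraries, against 231 to 341 FPKM in the other 5. HSPA8, TUBB and MIR1244-1 have near-identical copies in the genome and their values are uncertain.

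Replicate 1 had its own genes. MMP1, the interstitial collagenase, was at 39.0 FPKM in replicate 1 and 1.37 FPKM in replicate 2, against 1.34 and 1.03 FPKM in the controls (log2 5.02 above the control mean in replicate 1 and 0.15 in replicate 2; edgeR adjusted p = 0.00445 and 0.912). The PC3 controls were at 8.02 FPKM each and the knockout libraries at 1.62 and 0.996 FPKM. CAVIN2, a coat protein of caveolae, was at 8.09 and 1.88 FPKM against 1.57 and 1.26 FPKM. ITGA2, the collagen-binding integrin alpha 2, was at 27.1 and 12.9 against 13.7 and 12.8 FPKM, and CAB39, a scaffold of the LKB1 kinase, at 20.3 and 8.32 against 8.34 and 7.23 FPKM. For ITGA2 and CAB39 the 4 PC3-labelled libraries lay with replicate 1, at 28.4 to 30.9 and 19.2 to 22.5 FPKM. Low in replicate 1 alone of the 8 libraries were the AP-1 subunit FOSL2, at 6.23 FPKM against 25.0 to 35.0 FPKM in the other 7, the zinc finger repressor ZBTB38, at 2.04 against 11.8 to 15.4 FPKM, the clock factor ARNTL2, at 5.25 against 14.4 to 17.2 FPKM, and ARHGAP19, a GTPase-activating protein, at 2.82 against 10.5 to 12.8 FPKM.

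The gap between the replicates was also searched in the direction of its size alone. In that ranking IL6R, a receptor chain for interleukin 6, was at 7.55 FPKM in replicate 1 and 0.573 FPKM in replicate 2, against 6.81 and 7.00 FPKM in the controls. AP002990 (chromosome 11, 62559603 to 62591531, minus strand), next to AHNAK, was at 8.82 and 143 FPKM, against 8.82 and 12.1 FPKM in the controls. It was also at 118 FPKM in 1 PC3 control library, where AHNAK was at 82.2 FPKM. SOCS7 was high in replicate 2 (7.21 FPKM) and in knockout replicate 2 (5.30 FPKM) and NUDT16 in replicate 1 (6.18 FPKM), knockout replicate 1 (6.70 FPKM) and PC3 control replicate 2 (6.18 FPKM), with both at 0.586 to 1.04 FPKM in their remaining libraries. BOLA2, from a duplicated region of chromosome 16, was at 0.0636 and 12.4 FPKM and BCL2L2 at 0.588 and 13.2 FPKM; each was also low in PC3 control replicate 1. SOCS7, NUDT16, AP002990, BOLA2 and BCL2L2 thus divided the 8 libraries across the labelled groups, whereas IL6R was low in replicate 2 alone.

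**Figure D3:**
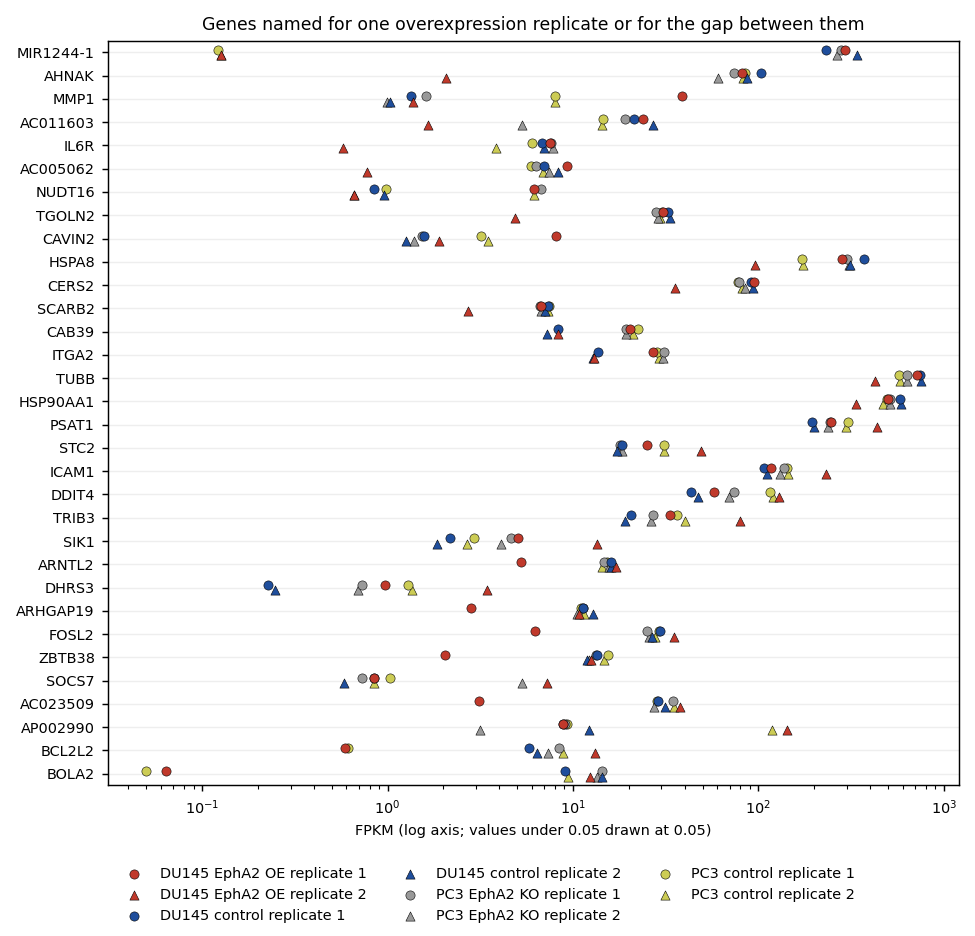
FPKM on a log axis in all 8 libraries of the genes named for 1 overexpression replicate or for the gap between the 2, ordered by that gap. Replicate 2 (red triangles) stands alone at the low end for AHNAK (2.07 FPKM), TGOLN2 and IL6R, and replicate 1 (red circles) at the high end for MMP1 (39.0 FPKM) and at the low end for FOSL2 and ZBTB38.

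Gene lists were described by the number of members on each side and by their medians, beside all genes tested, for which the median log2 fold change was 0.01. In all, both overexpression libraries lay above both controls in 19.1% of genes tested and below both in 18.2%. Among genes with a mean CPM above 20 these shares were 16.2% and 24.4%. Of all genes tested 51.1% lay higher in the fit, and 43.5% of those with a mean CPM above 20. For counts with 1 replicate alone, the shares over all genes were 0.843% higher and 0.674% lower for replicate 2. For replicate 1 they were 0.0486% and 0.113%. The lists with the highest medians were ATF4 stress regulators and secreted factors (0.84), chemokines (0.80), amino acid and one-carbon enzymes of the ATF4 response (0.67), complement genes (0.57), genes of the GBP and interferon gamma group (0.54) and interferon-induced antiviral effectors (0.47). The lowest were replication-dependent histone genes (-0.42), cholesterol synthesis genes (-0.38), Eph receptors (-0.31), cytosolic heat shock genes (-0.26) and G2/M genes (-0.24). In 10 of these 11, Eph receptors excepted, replicate 2 lay farther from the controls than replicate 1.

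**Figure D4:**
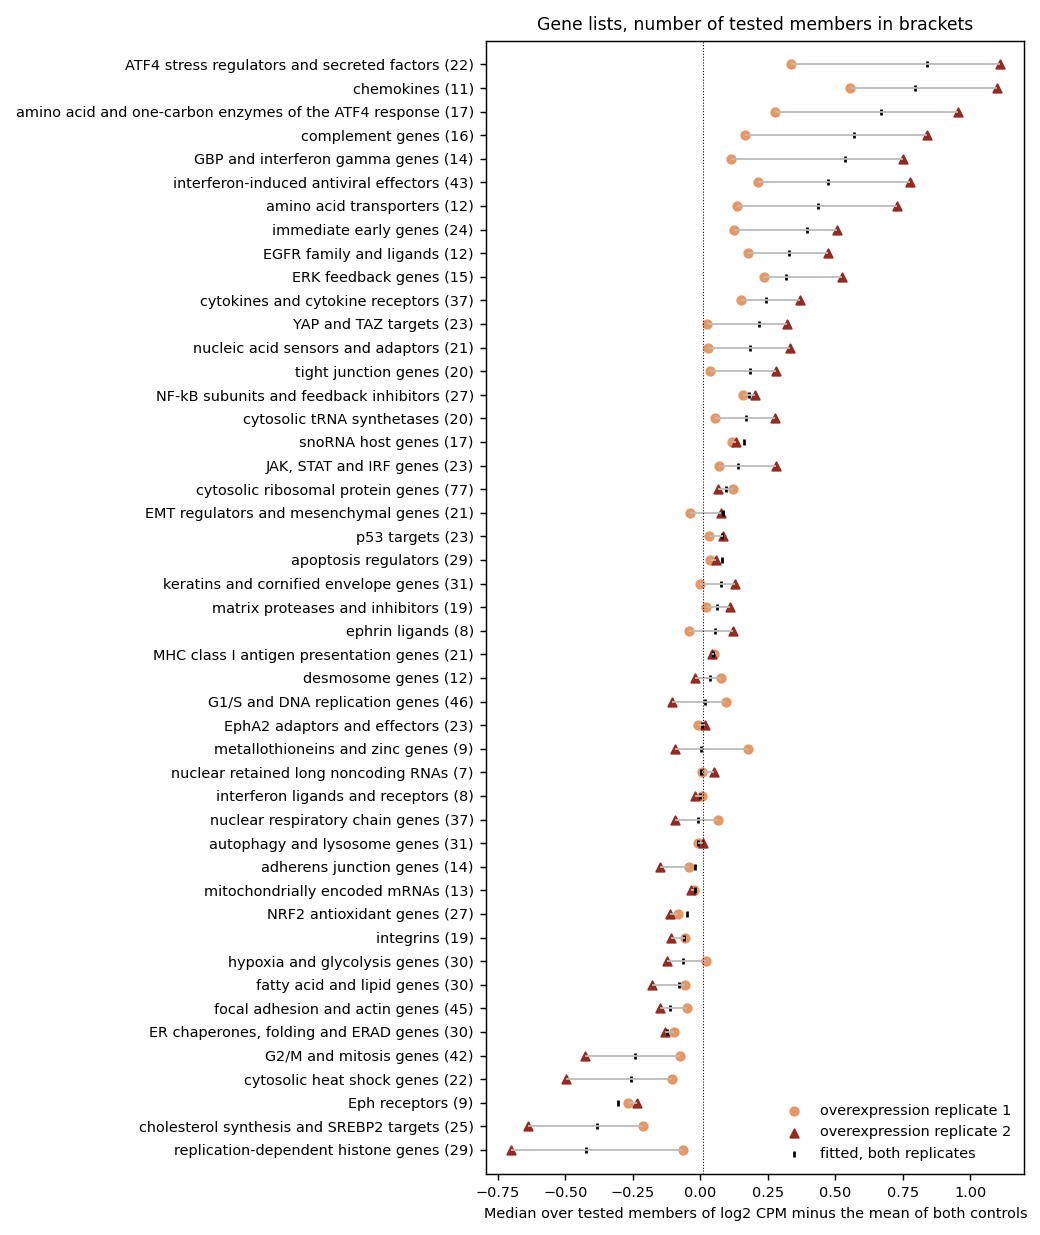
Median over the tested members of 47 gene lists of log2 CPM minus the mean of both controls, in overexpression replicate 1 (circles) and replicate 2 (triangles), with the fitted median (ticks) and the median of all genes tested (dotted line). The ATF4 regulators run from 0.34 in replicate 1 to 1.11 in replicate 2, and cholesterol genes from -0.21 to -0.64.

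Interferons bind cell-surface receptors and, through JAK kinases and STAT and IRF factors, switch on effectors that carry an interferon-stimulated response element. Of 43 effectors measured, 41 lay higher, and in 27 both overexpression libraries were above both controls. The list's median stood at 0.21 in replicate 1 and 0.78 in replicate 2. None passed in edgeR with both replicates, 19 were higher at an unadjusted p under 0.05 (5.01% of all genes were) and DESeq2 called 9. With replicate 2 alone 11 passed and with replicate 1 alone 1 did, IFI6. IFI44, a cytoplasmic effector, was at 4.24 and 8.44 FPKM against 1.49 and 1.40 FPKM, MX1, a GTPase that blocks viral ribonucleoproteins, at 4.75 and 9.36 against 2.31 and 2.43 FPKM, and ISG15, a ubiquitin-like modifier, at 40.7 and 81.2 against 26.4 and 26.4 FPKM. In each of these 3 both overexpression libraries were above both controls. OAS3, which activates RNase L, was at 13.8 and 22.3 FPKM against 12.02 and 11.5 FPKM. The count of higher members was 41 without replicate 1, 32 without replicate 2 and 41 with the controls exchanged, where the median was 0.72.

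The genes upstream of the effectors had lower medians, 0.00 for interferon ligands and receptors, 0.19 for sensors and 0.14 for JAK, STAT and IRF genes. Of 8 interferon ligands and receptors 4 lay higher; IFNAR1 was at 14.1 and 14.4 FPKM against 11.6 and 16.2 FPKM and IFNAR2 at 6.41 and 7.14 against 6.68 and 6.46 FPKM, with overlapping groups. The ligand IFNE was at 2.12 and 0.727 FPKM against 2.16 and 1.34 FPKM. Of 21 nucleic acid sensors and adaptors 13 lay higher; with replicate 2 alone 3 passed higher (DDX60, TRIM25 and IFI16) and 1 lower (ADAR), and DESeq2 called 1. That gene was DDX60, a helicase induced by interferon, at 1.13 and 3.06 FPKM against 0.789 and 0.645 FPKM. RIGI, a sensor of viral RNA, was at 7.15 and 10.1 FPKM against 6.44 and 6.61 FPKM, while the DNA sensor CGAS and its adaptor STING1 were at 8.09 and 7.40 against 6.92 and 7.65 FPKM and at 4.93 and 5.04 against 4.79 and 5.00 FPKM. Of 23 JAK, STAT and IRF genes 17 lay higher (12 with the controls exchanged, median 0.0051), with IRF7 at 2.43 and 5.46 against 1.96 and 2.18 FPKM and IRF9, the DNA-binding part of the interferon-stimulated complex, at 2.53 and 3.46 against 1.85 and 0.975 FPKM. Of 14 genes of the GBP and interferon gamma group 11 lay higher, and their median of 0.54 became 0.27 on exchange. Of 21 genes of MHC class I presentation 13 lay higher, and 19 on exchange, where the median went from 0.05 to 0.20; besides HLA-B, the peptide transporter TAP1 was at 20.1 and 23.3 against 13.96 and 16.6 FPKM, while the proteasome subunit PSMB8 was at 15.0 and 16.4 against 14.1 and 16.4 FPKM. HLA genes are near-identical in part and share reads.

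The 250 bases before each gene's start were searched on both strands for GAAA, any 2 bases and GAAA, a form of the response element. It was found in 24 of 37 effectors with a promoter in the RefSeq table (build GRCh38.p14), and in 3.71% of 27305 genes; a gene can have more than 1 start, and a match is a description of letters. Windows around the match, which stands in capitals, are shown for 3 of the effectors above to set the element beside its neighbours, 5′ to 3′ on the gene's strand. TTTC on both sides of 2 bases is the same element read on the other strand.
IFI6, chr1:27672268-27672337, minus strand, 115 bases before the start: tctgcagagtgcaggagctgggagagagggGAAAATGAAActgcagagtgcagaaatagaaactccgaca
ISG15, chr1:1013360-1013429, plus strand, 107 bases before the start: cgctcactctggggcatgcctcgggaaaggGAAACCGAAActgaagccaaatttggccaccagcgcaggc
IFI44, chr1:78649741-78649810, plus strand, 60 bases before the start: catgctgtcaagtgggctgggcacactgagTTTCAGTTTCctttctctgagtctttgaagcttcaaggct
In IFI6 a second match, GAAATAGAAA, lies within the same window, and in ISG15 another overlaps the one in capitals.

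NF-kB dimers are held by inhibitors and, once free, switch on both chemokines and their own inhibitors. All 11 chemokines measured lay higher, and in 7 both overexpression libraries were above both controls. CXCL8, which draws neutrophils, was at 55.3 and 87.2 FPKM against 30.6 and 37.4 FPKM, CXCL2 at 27.4 and 51.2 against 16.7 and 19.5 FPKM, and CXCL1 at 25.5 and 42.3 against 18.1 and 19.6 FPKM. These 3 passed with replicate 2 alone and not with both; over the list 5 were higher at an unadjusted p under 0.05 in edgeR and DESeq2 called 3. After exchange of the controls 10 of 11 lay higher, median 0.69. Of 27 NF-kB subunits and inhibitors 19 lay higher. TNFAIP3 alone passed in edgeR, and DESeq2 called 3, TNFAIP3, NFKB2 and TRAF3. Among the subunits NFKB2, the precursor of p52, was at 26.5 and 40.9 FPKM against 19.2 and 20.01 FPKM and RELB at 7.78 and 10.5 against 4.02 and 5.95 FPKM. NFKB1 was also above both controls in each, by less, at 14.6 and 16.6 against 13.9 and 13.7 FPKM. RELA was at 21.3 and 17.1 against 18.8 and 11.6 FPKM, with overlapping groups. TRAF3, which restrains the p52 branch, was at 2.60 and 6.16 FPKM against 11.7 and 10.4 FPKM, below both controls in each. It was also low in the PC3-labelled knockout libraries, at 4.28 and 2.83 FPKM, against 10.5 and 10.6 FPKM in the PC3 controls. The inhibitor NFKBIA was at 53.7 and 64.9 against 45.1 and 44.3 FPKM. Of 37 cytokines and their receptors 24 lay higher. IL6 was at 3.93 and 9.70 FPKM against 2.02 and 2.94 FPKM and LTB, lymphotoxin beta, at 4.90 and 8.02 against 2.66 and 2.16 FPKM, while TNF was listed at 0 in both overexpression libraries and IL33, the ligand of IL1RL1, did not exceed 0.0165 FPKM in any library.

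For NF-kB the search was for GGGA, any 1 base and TTTCC, on both strands, found before the start of 14 of 33 list members with a promoter and of 0.645% of genes. TNFAIP3, the called gene, is shown with CXCL2 and NFKB2; capitals mark the match.
TNFAIP3, chr6:137867162-137867231, plus strand, 67 bases before the start: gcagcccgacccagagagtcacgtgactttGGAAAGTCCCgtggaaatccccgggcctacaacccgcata
CXCL2, chr4:74099234-74099303, minus strand, 78 bases before the start: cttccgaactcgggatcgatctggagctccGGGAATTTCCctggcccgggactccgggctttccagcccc
NFKB2, chr10:102395654-102395704, plus strand, 21 bases before the start: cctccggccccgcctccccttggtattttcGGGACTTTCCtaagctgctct

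When amino acids run short or unfolded protein builds up, kinases phosphorylate eIF2 and the factor ATF4 is translated, which switches on genes for amino acid supply. Enzymes of this response lay higher in 15 of 17, with both overexpression libraries above both controls in 13. None passed in edgeR with both replicates (11 were higher before adjustment at 0.05, and DESeq2 called 6), and 10 passed with replicate 2 alone, where 0.843% of genes were called higher. ASNS, asparagine synthetase, was at 25.9 and 49.1 FPKM against 15.1 and 15.8 FPKM, CTH, which makes cysteine, at 3.19 and 7.74 against 1.99 and 2.04 FPKM, PHGDH, the first enzyme of serine synthesis, at 11.5 and 20.01 against 9.80 and 9.32 FPKM, and MTHFD2, of mitochondrial folate metabolism, at 71.0 and 106 against 56.2 and 59.4 FPKM. In each of these 4 both overexpression libraries exceeded both controls and replicate 2 was the highest. Among 12 amino acid transporters 10 lay higher, 7 at an unadjusted p under 0.05, and 8 passed with replicate 2 alone, SLC7A5, which imports leucine, among them at 91.9 and 155 FPKM against 79.1 and 73.5 FPKM. SLC7A11, the cystine importer, was at 13.5 and 25.0 against 13.6 and 12.8 FPKM, with replicate 1 between the controls.

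Among the regulators and secreted factors of the response 20 of 22 lay higher, 14 at an unadjusted p under 0.05 with none past the adjusted threshold in edgeR and 8 called by DESeq2, and 10 passed with replicate 2 alone. The kinases EIF2AK3 (2.26 and 2.40 against 2.26 and 2.23 FPKM) and EIF2AK4 (14.6 and 13.97 against 16.2 and 15.8 FPKM) and ATF4 itself (18.5 and 25.0 against 17.8 and 17.9 FPKM) lay closer to the controls than the factors below them. DDIT3, the CHOP factor, was at 15.8 and 29.0 FPKM against 13.1 and 10.9 FPKM, CEBPB at 30.4 and 59.1 against 24.2 and 23.1 FPKM, SESN2, a leucine sensor, at 8.96 and 18.0 against 5.96 and 6.72 FPKM, and PPP1R15A, which returns eIF2 to its unphosphorylated state, at 24.3 and 48.6 against 18.7 and 20.8 FPKM. The chaperone side of the unfolded protein response did not move with these: 6 of 30 ER chaperone, folding and degradation genes lay higher, median -0.12, with HSPA5, the chaperone BiP, at 218 and 240 FPKM against 244 and 246 FPKM and DNAJB9 at 4.38 and 6.65 against 6.11 and 5.78 FPKM. ERN1, the IRE1 sensor, was at 2.68 and 6.24 against 2.48 and 2.00 FPKM. Of 20 cytosolic tRNA synthetases 12 lay higher, 6 of them past the threshold with replicate 2 alone.

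These 3 ATF4 lists had lower medians when the other pair of controls was used. Under the column reading used here that pair is labelled PC3, so the exchange also compares across line labels. With the controls exchanged the medians were 0.08 for the enzymes (11 of 17 higher), 0.14 for the transporters (9 of 12) and 0.09 for the regulators (14 of 22). TRIB3 was at 36.5 and 40.1 FPKM in the PC3 control libraries, above replicate 1 and below replicate 2. Without replicate 2 the counts were 15 of 17, 9 of 12 and 19 of 22, and without replicate 1 they were 15, 10 and 20.

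The motif searched for ATF4 and its C/EBP partners was TGATGNAA, found before the start of 8 of 41 members of the 3 lists with a promoter and of 3.89% of genes. ASNS and CEBPG are shown, the latter a partner of ATF4 at 29.6 and 48.0 FPKM against 21.9 and 23.4 FPKM.
ASNS, chr7:97872439-97872506, minus strand, 68 bases before the start: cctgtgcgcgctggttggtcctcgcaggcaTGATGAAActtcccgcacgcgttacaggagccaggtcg
CEBPG, chr19:33374041-33374108, plus strand, 42 bases before the start: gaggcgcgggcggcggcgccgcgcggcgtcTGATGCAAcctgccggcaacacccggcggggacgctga

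Cholesterol is made from acetyl-CoA by enzymes that the factor SREBP2 switches on when sterols fall. Of 25 genes of this list 21 lay lower, and in 18 both overexpression libraries were below both controls. None passed in edgeR with both replicates (15 were lower before adjustment at 0.05, as were 4.05% of all genes, and DESeq2 called 4), and 10 passed with replicate 2 alone, where 0.674% of genes were called lower. HMGCS1, an early synthase of the pathway, was at 34.3 and 26.6 against 49.6 and 45.3 FPKM, and LSS, which closes the sterol rings, at 19.6 and 14.4 against 28.1 and 27.6 FPKM. Both overexpression libraries were below both controls in each of these, replicate 2 the lower. SREBF2 itself was at 30.6 and 28.8 against 33.1 and 29.5 FPKM. With the controls exchanged 4 of 25 still lay higher, the median was -0.16, and HMGCS1 turned to 0.40. Of 18 members with a promoter 1, SREBF2, held TCACNCCAC, a sterol element, against 1.09% of genes.

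Heat shock genes, chaperones under the factor HSF1, lay lower in 21 of 22, with both overexpression libraries below both controls in 16; 9 passed with replicate 2 alone and none with both in edgeR (4 at an unadjusted p under 0.05) or DESeq2. The inducible chaperones HSPA1A and HSPA1B were at 41.5 and 18.6 FPKM against 45.8 and 49.4 FPKM and at 43.3 and 17.8 against 45.6 and 45.0 FPKM; they are near-identical copies. DNAJA1, a co-chaperone, was at 80.1 and 46.8 against 83.2 and 84.6 FPKM. Replicate 2 was the low library in each, and the list's median was -0.10 in replicate 1 and -0.50 in replicate 2. Without replicate 2, 5 of 22 lay higher, and with the controls exchanged 7 of 22 did. A heat shock element in the form GAA, TTC and GAA with any 2 bases between them, or its reverse complement, was found before the start of 7 of 20 members and of 0.557% of genes; HSP90AA1, the most abundant of those called with replicate 2 after HSP90AB1, is shown.
HSP90AA1, chr14:102087090-102087162, minus strand, 88 bases before the start: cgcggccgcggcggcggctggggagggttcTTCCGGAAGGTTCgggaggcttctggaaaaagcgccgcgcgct

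Genes of G2 and mitosis lay lower in 40 of 42, 11 of them at an unadjusted p under 0.05; with both replicates none passed in edgeR and DESeq2 called 2, and with replicate 2 alone 9 passed. KIF20A, a motor of cytokinesis, was at 36.4 and 26.8 FPKM against 49.8 and 49.1 FPKM, CCNB1, cyclin B1, at 81.2 and 61.7 against 97.1 and 103 FPKM, and MKI67, the Ki-67 proliferation marker, at 40.2 and 27.8 against 49.5 and 42.0 FPKM. Each lay below both controls in both overexpression libraries. The median was -0.08 in replicate 1 and -0.43 in replicate 2; without replicate 2, 13 of 42 lay higher, and with the controls exchanged 25 of 42 did, median 0.03. Genes of G1/S and DNA replication divided evenly, 24 of 46 higher, median 0.09 in replicate 1 and -0.10 in replicate 2. Of 29 replication-dependent histone genes 23 lay lower, and their median of -0.42 became -0.20 on exchange of the controls; H2BC12 was at 212 and 148 FPKM against 252 and 253 FPKM, and these genes are many near-identical copies whose mRNAs mostly lack poly(A) tails.

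**Figure D5:**
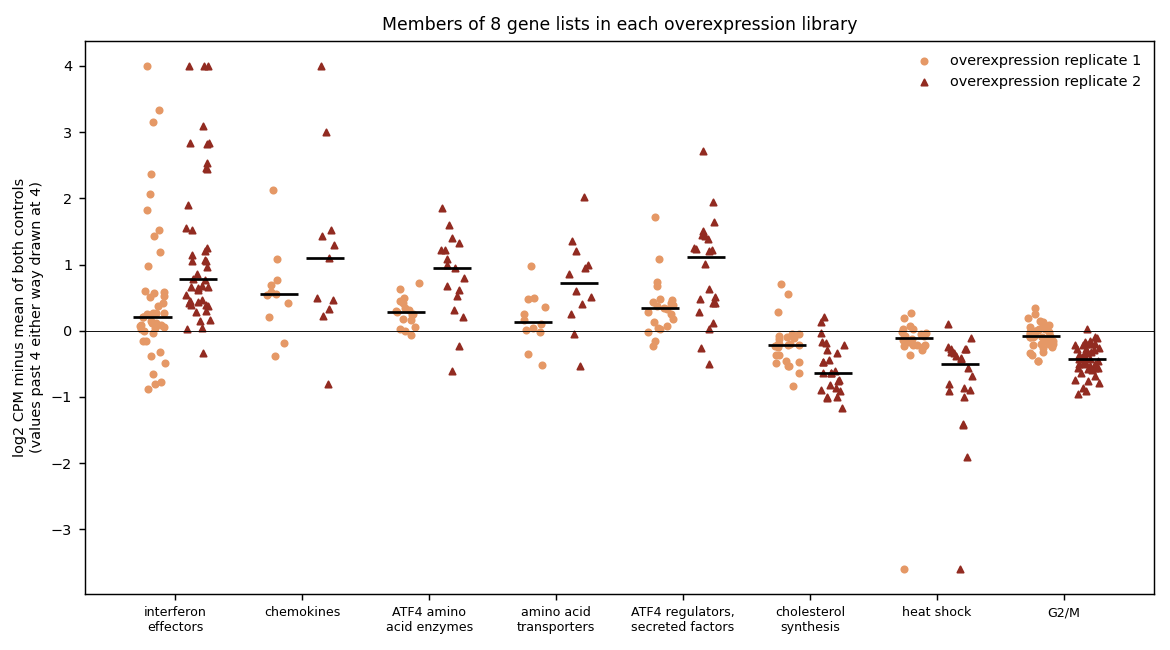
Log2 CPM minus the mean of both controls of each tested member of 8 gene lists, in overexpression replicate 1 (circles) and replicate 2 (triangles), with medians as bars and values past 4 drawn at 4. In the interferon, chemokine and ATF4 lists most points lie above 0 and in the last 3 lists below, with replicate 2 the farther; the medians of the interferon effectors are 0.21 and 0.78.

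Of 12 members of the EGF receptor family and its ligands 11 lay higher; the 3 ligands AREG, EREG and TGFA are given first as those of smallest p. AREG, amphiregulin, was at 103 and 102 FPKM against 60.7 and 64.3 FPKM, EREG, epiregulin, at 36.1 and 42.5 against 21.8 and 23.1 FPKM, and TGFA, transforming growth factor alpha, at 14.4 and 12.9 against 7.94 and 9.03 FPKM. In these 3 the replicates were close to each other and above both controls, none past the threshold in edgeR (adjusted p = 0.116, 0.0865 and 0.270), while DESeq2 called all 3. The list's median of 0.33 became 0.05 on exchange of the controls. The receptors were at 32.1 and 47.1 against 35.4 and 32.0 FPKM for EGFR and at 5.42 and 6.06 against 5.38 and 5.04 FPKM for ERBB2. Downstream, 13 of 15 genes of ERK feedback lay higher, median 0.24 in replicate 1 and 0.53 in replicate 2. DUSP5, a nuclear ERK phosphatase, was at 39.6 and 58.6 FPKM against 23.7 and 24.6 FPKM, DUSP4 at 3.39 and 3.32 against 0.876 and 1.31 FPKM, and ETV5, a factor induced by ERK, at 18.6 and 24.6 against 15.2 and 13.8 FPKM. SPRY2, an inhibitor of receptor signalling, was at 11.1 and 10.5 against 9.52 and 10.1 FPKM. Of 24 immediate early genes 20 lay higher; EGR1 was at 15.7 and 29.4 against 15.7 and 14.8 FPKM, and with the controls exchanged 14 lay higher.

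On adhesion and migration, 14 junction genes of the adherens type divided into 6 higher and 8 lower. EPCAM was at 38.4 and 34.5 FPKM against 24.9 and 24.9 FPKM, and JUP, plakoglobin, at 8.73 and 10.2 against 6.65 and 6.18 FPKM, against the lower level of CDH1 given above. Among 20 tight junction genes 14 lay higher, with CLDN1, claudin 1, at 28.0 and 48.1 against 15.7 and 18.5 FPKM and CLDN7 at 2.70 and 4.90 against 1.38 and 1.26 FPKM; 7 lay higher with the controls exchanged. Of 45 focal adhesion and actin genes 30 lay lower and in 20 both overexpression libraries were below both controls. The exception LASP1 was the 1 member past the threshold. MYL9, a myosin light chain, was at 37.6 and 41.5 FPKM against 48.6 and 46.8 FPKM and FLNA, which crosslinks actin, at 139 and 143 against 164 and 155 FPKM; with the controls exchanged 28 of 45 lay higher. Integrins (8 of 19 higher), matrix proteases and their inhibitors (11 of 19), EMT regulators and mesenchymal genes (11 of 21) and desmosome genes (8 of 12) had medians between -0.06 and 0.08. YAP and TAZ targets lay higher in 16 of 23, with CCN2 at 8.83 and 12.5 against 5.69 and 5.99 FPKM, beyond the 4.87 to 5.68 FPKM of the PC3-labelled libraries.

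Among the remaining lists, complement genes lay higher in 12 of 16, with C3, the central component, at 1.26 and 4.01 FPKM against 1.10 and 0.858 FPKM, but with the controls exchanged the median was -0.01. Cytosolic ribosomal protein genes lay higher in 61 of 77 with a median of 0.09, and in 31 of 77 without DU145 control replicate 1. The 10 epithelial markers had a median of 0.36 (7 higher and 3 lower, of which 4 and 3 at an unadjusted p under 0.05 in edgeR, with 3 called by DESeq2), which became 0.02 on exchange. The 8 luminal prostate genes tested had a median of 0.20, or -0.15 on exchange, and 17 snoRNA host genes one of 0.16, with 3 called higher in replicate 2 alone. Nuclear respiratory chain genes (17 of 37 higher), mitochondrially encoded mRNAs (4 of 13), p53 targets (14 of 23), apoptosis regulators (19 of 29), NRF2 antioxidant genes (9 of 27), hypoxia and glycolysis genes (14 of 30), fatty acid and lipid genes (10 of 30) and autophagy and lysosome genes (15 of 31) had medians within 0.10 of 0. Within these, BCL2L11, the BIM initiator of apoptosis, was at 0.913 and 1.14 FPKM against 4.93 and 4.03 FPKM; it did not pass in edgeR and was 1 of 2 apoptosis regulators called by DESeq2.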

How the data were processed

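RNA of 8 libraries was measured by stranded paired-end sequencing after poly(A) selection, per the labels' protocols. The authors deposited 1 table with a count and an FPKM value per gene and library; cutadapt 1.9, HISAT2 2.2.1 and StringTie 2.1.6 on GRCh38, with DESeq2 and edgeR, are named in the submitters' processing notes. No column of the table was left unmapped. The control columns were given to the 2 lines by the usual meaning of their names.

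The deposited counts were fitted with edgeR 4.0.16 in R 4.3.3: 4 group means over 8 libraries (4 residual degrees of freedom), TMM scaling, filterByExpr (minimum count 10, minimum total 15), quasi-likelihood test, Benjamini-Hochberg adjusted p under 0.05 over 22727 genes. Per-library log2 differences are log2 CPM (prior count 2) minus the mean of both controls. Each overexpression replicate was also fitted alone against both controls, and the code was tested on simulated data. Alternatives used DESeq2 1.42.0, limma 3.58.1 on log2(FPKM + 1) and log2(FPKM + 0.1), which understates changes of low genes, other scalings and filters, a replicate block, each library left out and the controls exchanged; the alternatives of the single-replicate fits and the list counts without each library were added after seeing the data. Two-sided permutation of 2 against 2 libraries cannot go below p = 0.333.

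Members and the 53 gene lists were chosen with earlier results of these data known. Named genes were EPHA2, CDH1, all called genes, the next by p to 12 in each direction, the 8 and 4 in each direction of smallest p for replicate 2 and replicate 1 alone, the 5 widest gaps between the replicates in each direction, and list members of smallest p or taken by role. Some named genes are not reported here. Identifiers matched a name table for 33084 of 33221 genes; an overlap is any shared base. At these depths the spread between libraries, not counting error, limits abundant genes. Sequences came from RefSeq promoters (GRCh38.p14).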

Additional observations from a re-analysis of the deposited data

How the results depend on the processing

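The 9 calls (5 higher, 4 lower) changed in number with the processing, and which choice was responsible was not tested. DESeq2 called 302 genes (200 higher, 102 lower), and the DU145-labelled libraries fitted alone called 0 in edgeR (0 higher, 0 lower; 1237 at an unadjusted p under 0.05). Without the filter on low counts 4 were called (2 higher, 2 lower), with limma on unfiltered log2(FPKM + 1) 5 (3 higher, 2 lower), with limma on log2(FPKM + 0.1) 7 (3 higher, 4 lower) and with upper-quartile scaling 6 (3 higher, 3 lower). Leaving out 1 library gave 7 to 376 calls (5 to 209 higher, 2 to 167 lower), 376 without overexpression replicate 1, 40 without replicate 2, 17 without control replicate 1 and 7 without control replicate 2. With the replicate number as a block 3 were called (1 higher, 2 lower); same-numbered DU145-labelled libraries had a correlation of -0.02 over 8261 genes, so the numbers were not taken to pair samples. Replicate 1 alone had 23 calls without the filter and 25 with the controls exchanged, replicate 2 alone 219 and 102.

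With the controls exchanged these log2 fold changes turned sign: DNAL1 (-0.22), F13A1 (0.015), TENT4B (-0.16), CPEB2 (0.39), DDIT4 (-0.33), MIR1244-1 (9.63), TUBB (0.0038), HSPA8 (0.15), ITGA2 (-0.51), CAB39 (-0.59), EPHA1 (-0.30), GRB7 (-0.37), JUP (-0.26), TAGLN (0.46), ITGB7 (-0.52), ITGB3 (0.11), MMP15 (-0.18), SLC38A2 (-0.14), AKR1C1 (0.26), HMOX1 (0.11), MT2A (0.20), PMAIP1 (-0.15), PSAP (-0.0036), HMGCS1 (0.40), NDRG1 (-0.20), CCND2 (-0.26), CCNB1 (0.075), H2BC11 (0.28), CTNNA1 (0.018) and CD68 (0.51). Some genes also turned sign when 1 library was left out, with these lowest and highest values: MIR1244-1 -10.6 and 0.025, CERS2 -1.44 and 0.020, ITGA2 -0.11 and 1.01, FOSL2 -2.20 and 0.25, ARNTL2 -1.63 and 0.029, IFNGR2 -0.011 and 0.60, IFNE -1.32 and 0.26, MT2A -0.29 and 0.020, and TUG1 -0.0094 and 0.49. Without replicate 2 MIR1244-1, CERS2, IFNGR2, IFNE and MT2A turned, without replicate 1 ITGA2, FOSL2 and ARNTL2, and without control replicate 1 IFNE (0.056) and TUG1. Genes named only for the gap between the replicates were not in this list. Among those, BCL2L2 (-3.37), AP002990 (-0.27) and IL6R (0.11) also turned without replicate 2. NUDT16 (-0.52) and BOLA2 (0.0069) turned without replicate 1, while SOCS7 kept its sign in both. The cause was not tested. None of the genes in these checks turned sign under the other alternatives that were run. Genes named only for the gap between the replicates, and list members taken by role alone, were not in these checks. The list for exchanged controls leaves them out as well.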

Other observations

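Long noncoding RNA genes lay slightly higher as a class. Over 4749 tested, the median log2 fold change was 0.11, at 0.06 in overexpression replicate 1 and 0.18 in replicate 2, and none passed the threshold in edgeR. Over 14795 protein-coding genes 9 passed, and the median was -0.0039, at 0.00 in each replicate. Medians also varied with abundance, at 0.01 over all genes and -0.03 over those with a mean CPM above 20. The classes were not matched for abundance.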
